A study of Mus musculus with 6 samples.

Results

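Active TGF-beta is released from stored, latent forms. The genes described here encode the ligands, proteins that hold them and the relative Ltbp2, which is known not to bind latent TGF-beta. They are Lrrc32, the gene of the surface receptor GARP, the ligand genes Tgfb1, Tgfb2 and Tgfb3, and the latent TGF-beta binding protein genes Ltbp1, Ltbp2, Ltbp3 and Ltbp4. All 8 were found by gene symbol among the 20199 genes of the deposited table, and all 8 passed the filter on low counts. Lrrc32 and Tgfb2 were chosen by their measured fold changes in the same comparison of knockout with wild type, and the other genes because they belong to the same families. Their differences between genotypes are therefore given as a description, with no test.

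The study sequenced RNA of smooth muscle cells, the cells that contract the vessel wall, taken from the aorta of C57B6 mice at 12 weeks of age. One group of 3 libraries is labelled WT/mTmG/ Myh11ERT2 and the other group of 3 libraries miR-21fl/flmTmG/Myh11ERT2. Both therefore carry mTmG, which reports Cre activity by a change of fluorescent protein, and Myh11ERT2, which by its name is driven by the smooth muscle myosin gene and switched on by an inducer, so any Cre action is limited to cells that use that gene. The floxed group is called knockout here, after the series title, which writes miR-21-/-. The sources used here do not say if the inducer was given, how cells were obtained from the vessel or if libraries stand for separate animals, so the spread between libraries may be partly technical. The comparison asks how the smooth muscle transcriptome differs between the genotypes.

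TGF-beta is made as a precursor whose propeptide stays wrapped around the mature ligand after cleavage and keeps it inactive. In the matrix this latent complex is tied by latent binding proteins to fibrillin and fibronectin, and on the cell surface it can be held by GARP, best known from regulatory T cells and platelets. Integrins, thrombospondin and proteases can release the ligand, which signals through the type I and type II receptors and Smad proteins. In the aortic wall this pathway is known for its part in smooth muscle differentiation, elastic matrix and aneurysm disease.

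The microRNA named in the knockout's label, whose level was not analysed here, is shown with its seed, bases 2 to 8 from the 5′ end, in capitals, because this stretch pairs with sites in 3′ UTRs. The mature miR-21a-5p is 22 bases long and lies on the minus strand of chromosome 11 from 86584120 to 86584141 (sequence from RefSeq, build GRCm38.p6). The site below it is the only seed match found in the 8 genes, with the matching bases in capitals.
miR-21a-5p: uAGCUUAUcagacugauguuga
Ltbp2 3′ UTR site: tgaggcttgtcATAAGCTctggcgcccata
The search covered the longest annotated 3′ UTR of each gene, read on the transcript strand, for TAAGCT (6 bases), for ATAAGCT and TAAGCTA (7 bases), which both contain it, and for ATAAGCTA (8 bases), which contains all of these. Ltbp2 held 1 ATAAGCT, from base 793 to base 799 of its 1038-base 3′ UTR. Among 1938 tested genes with a 3′ UTR within 25% of that length, 4.08% held ATAAGCT. In Lrrc32 (1825 bases searched), Tgfb1 (436), Tgfb2 (2262), Tgfb3 (1036), Ltbp1 (1214), Ltbp3 (440) and Ltbp4 (260), none of the 4 motifs was in these letters. TAAGCT occurred in 30.5% of 3′ UTRs near the length of that of Lrrc32 and in 36.2% near that of Tgfb2. Transcripts were from GENCODE vM1, an annotation of an older build, so they give sequence and no position on the genome.

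Library totals ran from 17123748 to 28610649 counts, and the 8 genes had between 540 and 59397 counts in every library. The smooth muscle markers were abundant in all libraries, where 10 listed genes summed to between 47700.4 and 55686 CPM, which are counts per 1000000 counts of the library after scaling with TMM factors. Wild-type replicate 1 stood apart: on the first principal component, with 40.6% of the variance, it lay at −58.1, against 1.53 to 27.3 for the other 5. The results below are therefore also given without it where it matters. In the fit over all 15185 genes tested, edgeR's quasi-likelihood test called 0 genes (0% of those tested) at an adjusted p of 0.05, and 955 had an unadjusted p under 0.05. DESeq2 called 69, and limma voom 0.

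Lrrc32 had the largest difference of the 8 genes between the genotypes. It lies on chromosome 7 from 98489283 to 98502181 (mm10). Its level was 186, 163 and 172 CPM in wild-type replicates 1 to 3 and 97.2, 82.8 and 97.5 CPM in knockout replicates 1 to 3. The groups did not overlap, and every knockout library was below 100 CPM while every wild-type library was above 160 CPM. The knockout mean was 53.2% of the wild-type mean (173.7 ± 11.4 and 92.5 ± 8.35 CPM, SD, n = 3 each; log2 fold change −0.91 ± 0.12 SE). The smallest count behind these values was 1707. edgeR did not call the gene with all 6 libraries. Of the fits with 1 library left out, only that without wild-type replicate 1 called it. Lrrc32 was chosen by this same contrast, so nothing is read from these outcomes. Leaving out wild-type replicate 1 gave a value of −0.86, and over all 13 alternative settings it ran from −0.95 to −0.83. In RNA of a bulk sample, fewer cells of a type and less RNA per cell cannot be told apart.

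Tgfb2, the ligand gene best known from heart and vessel development, was the other gene with groups apart. It lies on chromosome 1 from 186622792 to 186705989. Its level was 217, 170.0 and 166 CPM in the wild-type libraries and 107, 132 and 99.3 CPM in the knockout libraries. Wild-type replicate 1 was the highest of the 6, and knockout replicate 2 came nearest to the wild type. The means were 184 ± 28.4 and 113 ± 17.2 CPM (SD, n = 3 each), so that the knockout was at 61.3% of the wild type (log2 fold change −0.71 ± 0.16 SE). Without wild-type replicate 1 the value was −0.57, and without knockout replicate 2 it was −0.83.

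Of the 8 genes, 2 had groups that did not overlap, both lower in the knockout, where 7.57% of all genes tested did so in that direction and 6.95% in the other. DESeq2 called Lrrc32 and Tgfb2, where it called 0.356% of genes as lower and 0.116% as higher. The choice of genes used this contrast, so nothing is read from either count.

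**Figure D1:**
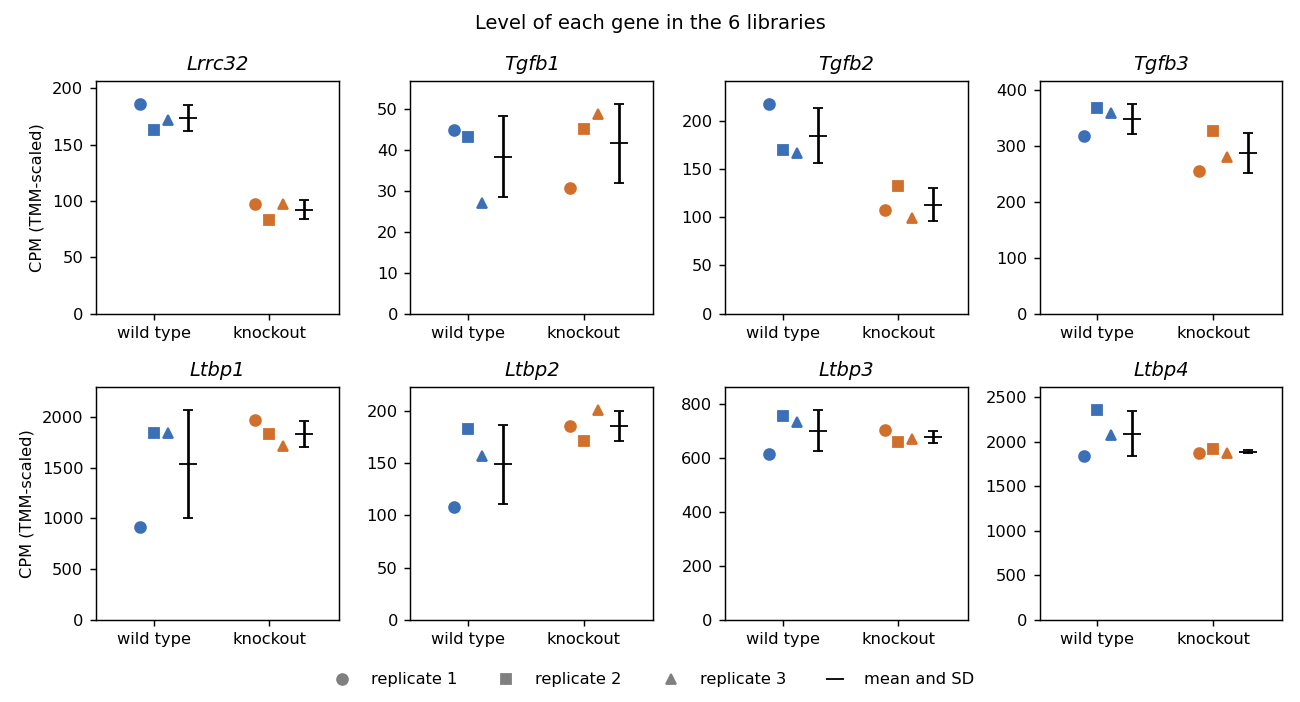
TMM-scaled CPM of each gene (vertical axes from 0) in the 3 wild-type (blue) and 3 knockout (orange) libraries, with symbols for the replicate number and bars for mean and SD. Lrrc32 and Tgfb2 are the panels in which the groups do not overlap, and wild-type replicate 1 is far below the other libraries for Ltbp1.

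Tgfb3 was the most abundant ligand gene in every library, and its groups overlapped. This ligand gene, known for palate and tendon development, lies on chromosome 12 from 86056745 to 86079041. It was at 317, 367 and 359 CPM in the wild type and 256, 327 and 281 CPM in the knockout. Knockout replicate 2 lay above wild-type replicate 1. The log2 fold change was −0.27 ± 0.13 SE, and it stayed negative in all 13 alternative settings, between −0.37 and −0.19.

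Tgfb1, the ligand with the widest roles in immunity and fibrosis, was the least abundant ligand gene and showed no shared direction. It lies on chromosome 7 from 25687002 to 25705077. It was at 44.9, 43.2 and 27.0 CPM in the wild type and 30.7, 45.2 and 48.8 CPM in the knockout. The lowest library was a wild-type one and the highest a knockout one, but the groups overlapped over most of their range. The log2 fold change was 0.12 ± 0.23 SE, and it ran from −0.08 without wild-type replicate 3 to 0.30 without knockout replicate 1.

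The ligand mixture was compared on levels per length, in CPM per kilobase of merged exons, because longer transcripts collect more reads. Tgfb3 made up 60.0%, 67.6% and 70.2% of the summed ligand level in the wild-type libraries and 68.8%, 68.2% and 67.7% in the knockout libraries. The share of Tgfb2 was 28.7%, 21.9% and 22.8% in the wild type and 20.2%, 19.3% and 16.7% in the knockout, so the groups lay apart, with wild-type replicate 1 highest. The share of Tgfb1 was 11.2%, 10.5% and 6.999% in the wild type and 10.9%, 12.5% and 15.6% in the knockout, with overlap. The summed ligand level was 156, 161 and 151 CPM per kilobase in the wild type and 109.8, 142 and 123 CPM per kilobase in the knockout, where the groups were also apart. These sums hold the Tgfb2 values that brought the gene in, and are no separate evidence. They also hold Tgfb3, at 102.8 ± 7.92 CPM per kilobase in wild type and 85.0 ± 10.6 in knockout. For Tgfb2 these means were 38.1 ± 5.86 and 23.3 ± 3.56 CPM per kilobase (SD, n = 3 each).

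**Figure D2:**
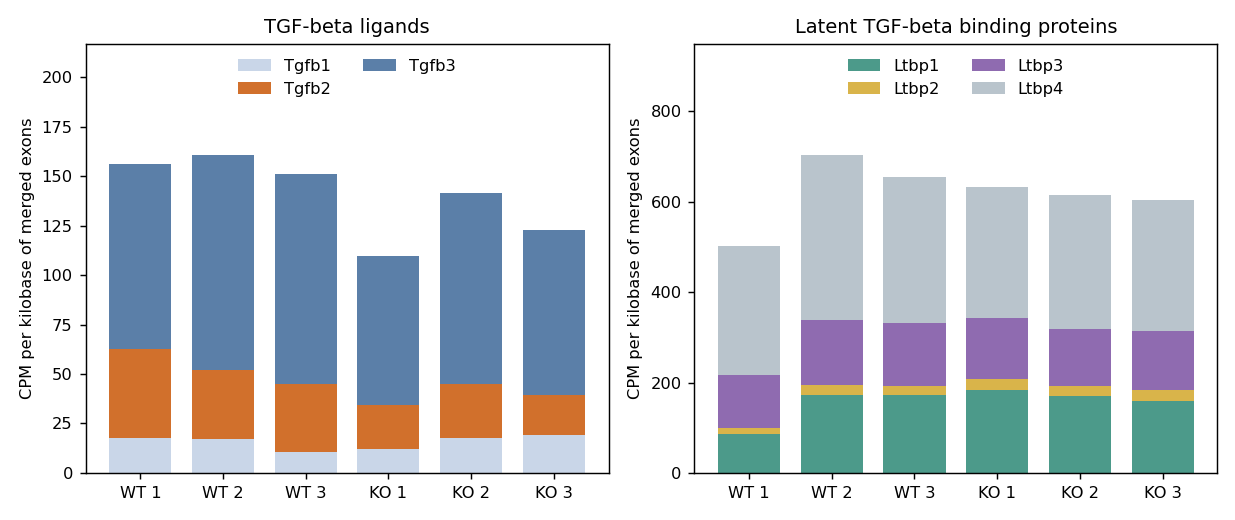
Stacked bars of CPM per kilobase of merged exons for the 3 ligand genes (left) and the 4 latent binding protein genes (right) in each library, WT for wild type and KO for knockout, with the replicate number. Tgfb3 takes the largest part of the ligand bars and Ltbp4 of the binding protein bars, and wild-type replicate 1 has the smallest binding protein sum.

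Among the latent binding proteins, none had groups apart. Ltbp1, whose product binds all 3 latent ligands, lies on chromosome 17 from 75005568 to 75392512. It was at 919, 1838 and 1841 CPM in the wild type and 1968, 1828 and 1709 CPM in the knockout. Wild-type replicate 1 was far below the other 5 libraries, which lay between 1709 and 1968 CPM. The log2 fold change was 0.26 ± 0.24 SE with that library and −0.0033 ± 0.10 SE without it.

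Ltbp2, whose product sits on elastic microfibrils and is known not to bind latent TGF-beta, showed a like dip. It lies on chromosome 12 from 84783212 to 84876532. It was at 108, 182 and 157 CPM in the wild type and 186, 171 and 200.5 CPM in the knockout. The lowest value was again that of wild-type replicate 1. The log2 fold change was 0.32 ± 0.18 SE, 0.13 without that library and 0.49 without wild-type replicate 2. The value of Ltbp2 was positive in all 13 alternative settings, and it was 0.13 ± 0.11 SE without wild-type replicate 1. This gene holds the seed match printed above, and a link between that site and these values was not tested.

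Ltbp3, which binds the latent ligands and is known for roles in bone, teeth and the thoracic aorta, was nearly level. It lies on chromosome 19 from 5740904 to 5758532. It was at 614, 754 and 733 CPM in the wild type and 703, 657 and 671 CPM in the knockout, and the knockout libraries all lay inside the wild-type range. The log2 fold change was −0.05 ± 0.12 SE, 0.01 without wild-type replicate 2 and −0.13 without wild-type replicate 1.

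Ltbp4, whose product guides elastic fibre assembly and mainly binds latent TGF-beta1, was the most abundant of the 8 genes. It lies on chromosome 7 from 27305136 to 27337692. It was at 1846, 2353 and 2079 CPM in the wild type and at 1879.6, 1915 and 1876 CPM in the knockout. The knockout values lay within a narrow band inside the wild-type range (SD 21.2 CPM, against 254 CPM in the wild type). The log2 fold change was −0.15 ± 0.13 SE, −0.23 without wild-type replicate 1 and −0.05 without wild-type replicate 2, the highest library.

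Ordered by level per length, Ltbp4 came first in every library, with 286 to 364 CPM per kilobase, and did not overlap with any other gene. Ltbp1 (86.0 to 184 CPM per kilobase) and Ltbp3 (118.1 to 145) followed and overlapped with each other, since wild-type replicate 1 put Ltbp1 in the fourth place. Tgfb3 (75.6 to 109) was below Ltbp3 without overlap. Lrrc32 (21.7 to 48.7) and Tgfb2 (20.5 to 44.9) came next and overlapped, as did Tgfb2 with Ltbp2 (13.2 to 24.5) and Ltbp2 with Tgfb1 (10.6 to 19.1). In wild type Lrrc32 stood at 45.5 ± 2.99 CPM per kilobase, above Tgfb2 in each library. In knockout Lrrc32 (24.2 ± 2.19), Tgfb2 (23.3 ± 3.56) and Ltbp2 (22.7 ± 1.77) were within their spread of each other. The order of the 8 means was the same with the longest transcript as the length, and the order within libraries was not compared. For Ltbp1 the length was 10688 bases as merged exons and 6671 bases as longest transcript, so its place in wild-type replicate 1 holds for merged exons only.

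**Figure D3:**
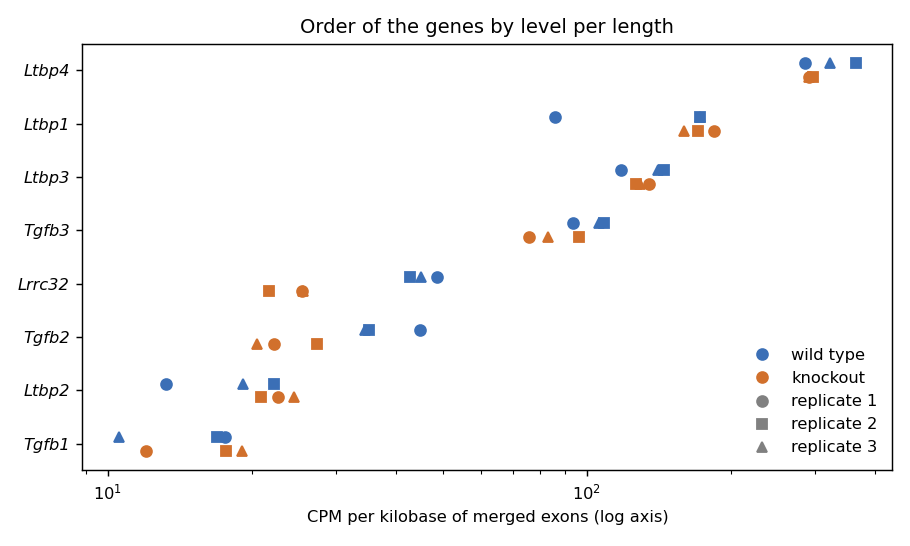
CPM per kilobase of merged exons on a log axis for each gene, in order of the mean over the 6 libraries, wild type in blue and knockout in orange, with symbols for the replicate number. Ltbp4 is highest throughout, and Lrrc32 and Tgfb2 lie lower in the knockout, where they meet Ltbp2.

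Over the 8 genes the fitted mean was lower in the knockout for 5 and higher for 3, with a median log2 fold change of −0.10, where 50.1% of all genes tested were lower and their median was −0.00078. The 3 higher genes were Tgfb1, Ltbp1 and Ltbp2. Leaving out wild-type replicate 1 gave a count of 6 lower genes and a median of −0.18, and leaving out wild-type replicate 2 a median of −0.02. Lrrc32, Tgfb2, Tgfb3 and Ltbp4 were lower in all 13 alternative settings.

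**Figure D4:**
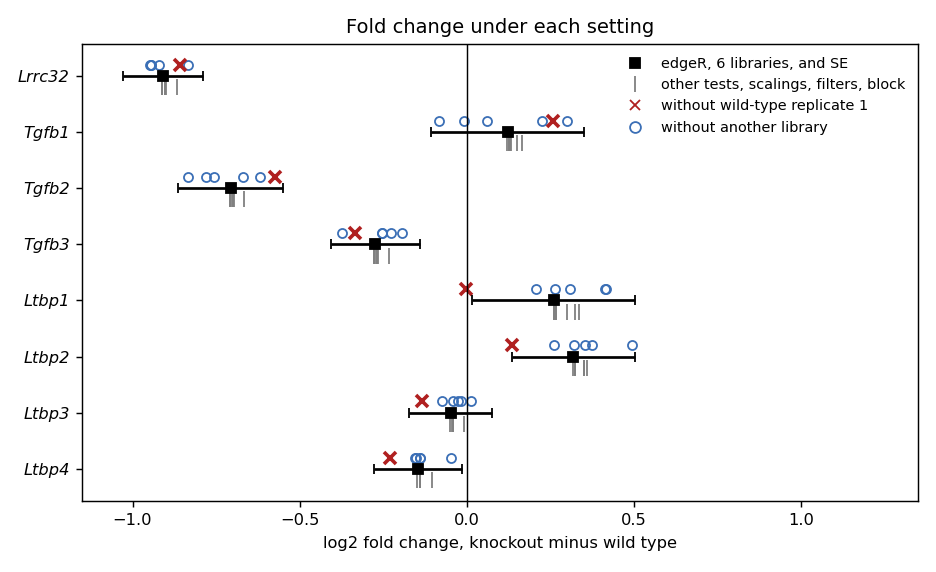
Log2 fold change (knockout minus wild type) of each gene with all 6 libraries in edgeR (black square, bar for SE), with other tests, scalings, filters or the replicate block (grey ticks), and with 1 library left out (circles, cross for wild-type replicate 1). Lrrc32 and Tgfb2 stay at or below −0.57, whereas Ltbp1 moves from 0.26 to about 0 without wild-type replicate 1.

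The genes that store or release latent TGF-beta were mixed. Of 30 listed genes 27 were tested, and 0 passed in edgeR in either direction. DESeq2 called 1 as lower, where it called 0.356% of genes in that direction. The fitted mean was higher for 13 and lower for 14 (median −0.02), where 50.1% of all genes tested were lower. The groups were apart for 4 genes as lower (14.8% of those tested) and for 2 as higher. Over all genes tested, 7.57% were apart as lower and 6.95% as higher. Mmp2, a gelatinase gene that DESeq2 called, was at 48.6, 40.9 and 45.4 CPM in wild type and 31.4, 28.0 and 25.3 CPM in knockout, so the groups were apart (log2 fold change −0.67 ± 0.13 SE, edgeR adjusted p = 0.413). Pcsk6, a proprotein convertase gene, had a value of −0.41 ± 0.14 SE and Mmp9, another gelatinase gene, a value of 1.10 ± 0.38 SE at 1.28 ± 0.513 and 2.81 ± 0.842 CPM. Furin, the convertase that cleaves the TGF-beta precursor, was at 0.05 ± 0.11 SE.

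The integrin genes that activate latent TGF-beta did not pass. Itgav, the alpha chain that binds the propeptide, was at 101, 238 and 270 CPM in wild type and 330, 234.1 and 234.1 CPM in knockout (0.39 ± 0.32 SE, and 0.07 without wild-type replicate 1). Its partner Itgb8 was at −0.25 ± 0.19 SE, −0.12 without wild-type replicate 1 and −0.40 without wild-type replicate 2. Values for Thbs1, the thrombospondin gene (−0.41 ± 0.30 SE), and Fbn1, the fibrillin gene (0.19 ± 0.26 SE), changed sign when 1 library was left out. Nrros, the gene of the GARP-like protein of myeloid cells, had 4, 8 and 10 counts in wild type and 3, 25 and 17 counts in knockout, and was too low to be tested.

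Of 20 receptor and Smad genes tested, 0 passed in edgeR or DESeq2. Over all genes, DESeq2 called 0.356% as lower and 0.116% as higher. The fitted mean of the listed genes was higher for 12 and lower for 8 (median 0.11), where 50.1% of all genes tested were lower. The groups were apart for 1 gene in each direction, where 7.57% of all genes tested were apart as lower and 6.95% as higher. Tgfbr1, the type I receptor gene, was at 89.0, 201 and 224 CPM in wild type and 273, 249 and 208 CPM in knockout (0.50 ± 0.29 SE, and 0.19 without wild-type replicate 1). Tgfbr2, the type II receptor gene, was at 86.3, 155 and 154 CPM and 173, 154 and 155 CPM (0.29 ± 0.21 SE, and 0.06 without it). Tgfbr3, the gene of the co-receptor betaglycan, which presents TGF-beta2 to the type II receptor, was at 62.9, 115 and 117 CPM and 159, 113 and 128.8 CPM (0.44 ± 0.23 SE, and 0.20 without it). In each of these 3 receptor genes, as in Ltbp1, Ltbp2 and Itgav, wild-type replicate 1 was the lowest library, and what sets this library apart was not tested. Bambi, the gene of a decoy receptor, did not pass (−0.39 ± 0.15 SE, edgeR adjusted p = 0.775). Smad3, a signal transducer, was at 0.33 ± 0.21 SE, and at 0.14 or 0.15 when replicate 1 of the wild type or of the knockout was left out. Smad7, the inhibitory Smad, was at 0.06 ± 0.29 SE and ran from −0.20 to 0.41 with 1 library left out.

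Genes known to respond to TGF-beta had a lower median, and 0 of 32 passed in edgeR. A lower fitted mean was found for 21 and a higher one for 11 (median −0.19), where 50.1% of all genes tested were lower. The groups were apart for 6 genes of the list, all lower (18.8%, where 7.57% of all genes tested were apart as lower and 6.95% as higher). DESeq2 called 1, Eln, the elastin gene, as lower, where it called 0.356% of genes in that direction. Eln was at 17306, 10048 and 10378 CPM in wild type and 6660.1, 6251 and 6795 CPM in knockout (−0.94 ± 0.21 SE, and −0.64 without wild-type replicate 1). Ctgf, a matricellular protein gene widely used as a readout of this pathway, was at 7387, 5302 and 6858 CPM and 3786, 5568 and 2980.1 CPM, and the groups overlapped (−0.66 ± 0.23 SE, edgeR adjusted p = 0.775). Cdkn2b, a cell cycle inhibitor gene, was at −0.67 ± 0.20 SE.

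The other response genes named here did not pass edgeR's test either. Pmepa1, a feedback inhibitor gene, had a log2 fold change of −0.40 ± 0.22 SE, and −0.09 without wild-type replicate 1. Tgfbi was at −0.31 ± 0.36 SE. Several of these genes answer to other pathways too, and this list shares Smad7, Skil, Pmepa1 and Ldlrad4 with the receptor list and Fn1 with the storage list.

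Among the other ligand genes of the superfamily, 12 of 23 listed genes were tested and 0 passed in edgeR. A lower fitted mean was found for 10 and a higher one for 2 (median −0.23), where 50.1% of all genes tested were lower. The groups were apart for 1 gene in each direction, which is 8.33% of those tested as lower. Over all genes tested, 7.57% were apart as lower and 6.95% as higher. Inhbb, the gene of the activin B subunit, was at 12.8, 10.8 and 14.7 CPM in wild type and 8.48, 5.34 and 6.41 CPM in knockout. Its groups were apart (log2 fold change in edgeR −0.93 ± 0.21 SE, adjusted p = 0.489). DESeq2 called it as lower, where it called 0.356% of genes in that direction. Inha, the inhibin alpha gene, was higher in every knockout library (0.46 ± 0.17 SE), and Gdf15, a stress-induced ligand gene, was at −0.71 ± 0.29 SE, and −0.36 without wild-type replicate 1.

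**Figure D5:**
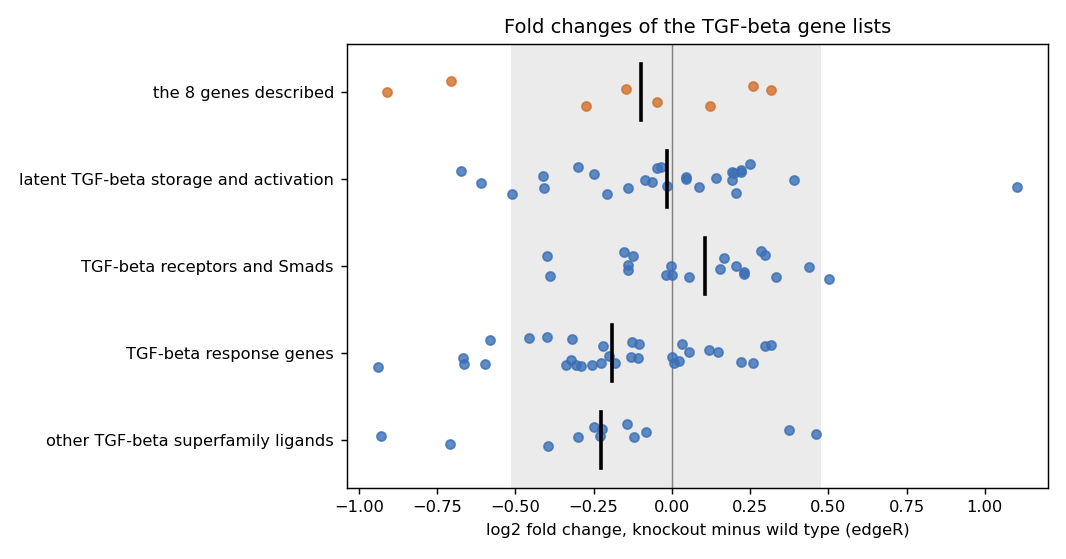
Log2 fold change (knockout minus wild type, edgeR) of each tested gene in the 8 genes described (orange) and in 4 lists of TGF-beta genes (blue), with a black bar for the median and a grey band from the 5th to the 95th percentile of all genes tested. Lrrc32 and Tgfb2 lie left of the band, the receptors have a median of 0.11 and the response genes one of −0.19.

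The tested genes nearest to Lrrc32 on each side were not lower in every knockout library. The nearest tested genes before it, Tsku at 128 kb and Acer3 at 168 kb, had log2 fold changes of −0.14 ± 0.31 SE and 0.29 ± 0.12 SE. Those after it, Emsy at 84.96 kb and Gm15506 at 180.2 kb, had values of 0.21 ± 0.13 SE and −0.19 ± 0.67 SE. None passed (edgeR adjusted p from 0.778 to 0.951). Acer3 had groups apart, higher in the knockout, where 6.95% of all genes tested were apart in that direction. Around Tgfb2 the values were −0.78 ± 0.34 SE for Lyplal1 at 505 kb and 0.04 ± 0.12 SE for Eprs at 1194 kb before it, and −0.37 ± 0.17 SE for Rrp15 at 14.99 kb and 0.17 ± 0.13 SE for Gpatch2 at 509.5 kb after it. Lyplal1 and Rrp15 had groups apart, lower in the knockout, where 7.57% of all genes tested were apart in that direction. A link of these differences to that of Tgfb2 was not tested. The value of Lyplal1 was −0.44 without knockout replicate 2, and that of Rrp15 −0.19 without wild-type replicate 1. None of these passed either (edgeR adjusted p from 0.778 to 0.940). On chromosome 7, Tgfb1 and Ltbp4 lie 1.6 Mb apart and 72.8 and 71.2 Mb from Lrrc32, and on chromosome 12 Tgfb3 and Ltbp2 lie 1.18 Mb apart.

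The genes whose levels over the 6 libraries were most like those of Lrrc32 were found by the root mean square distance between log2 CPM values, each gene centred on its own mean, among 9138 other genes of at least 10 CPM. They were Mrpl55, a mitochondrial ribosomal protein gene (distance 0.102), Scpep1, a serine carboxypeptidase gene (0.131), Ankrd1 (0.167), Cacybp (0.167) and Mmp2 (0.168). Mrpl55 (from 59202486 to 59206134) and Scpep1 (from 88924020 to 88955465) lie on chromosome 11, as does miR-21a-5p (from 86584120). A link of their differences to that locus was not tested. The genes most like Tgfb2 were Map3k7cl (0.0950), Tmem176b (0.107), Rin3 (0.114), Serpinb6b (0.116) and EPPK1 (0.116). All 10 were lower in knockout, as the measure requires, and the likeness rests on 6 libraries of 2 genotypes.

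Marker genes of other cells, among them those known to carry GARP, were read beside the 8 genes. The T cell list had 5 of its 10 genes in the table and summed to 9.44, 5.49 and 5.32 CPM in wild type and 4.78, 4.35 and 4.23 CPM in knockout, of which Ikzf2 made up 8.92, 4.83 and 4.31 CPM and 4.10, 3.95 and 3.81 CPM. Foxp3, which defines regulatory T cells, had 2 to 8 counts per library and Cd3e 0 to 6. The platelet list, with 6 of 9 genes in the table, summed to 7.41 to 8.43 CPM in wild type and 6.48 to 8.18 CPM in knockout, of which Gp1bb made up 3.57 to 6.84 CPM, and Gp9 had 0 to 4 counts. Endothelial markers, 11 of 11 in the table, summed to 78.9 to 98.4 CPM in wild type and 82.2 to 106.05 CPM in knockout, most of it Esam and Pecam1, while Cdh5 had 1 to 16 counts. Macrophage markers summed to between 2.62 and 10.2 CPM in all libraries. The ranges of the platelet, endothelial and macrophage sums overlapped between the genotypes. The T cell sum was lower in all knockout libraries, and so was Ikzf2, which made up most of it. Ikzf2 did not pass (edgeR adjusted p = 0.778), and 7.57% of all genes tested were apart as lower. Fibroblast markers summed to 1301 to 1353 CPM in wild type and 1236 to 1353 CPM in knockout. Of these sums Gsn made up 1131 to 1146 CPM and 1094 to 1166 CPM, while Pdgfra was at 4.04 to 19.8 CPM over all libraries. Pericyte markers summed to 2939 to 3988 CPM in wild type and 3722 to 4061 CPM in knockout, most of it Cspg4 and Rgs5. Their part in the differences of the 8 genes was not tested.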

How the data were processed

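Per the submitters' processing notes, STAR 2.6, DESeq2 and the mouse build mm10 were used; no source used here names the counting tool or its strand setting, so counts of overlapping genes are uncertain. The values of the deposited table were read as estimated counts, without normalisation, because 65.4% were whole to within 0.01 and the 6 column totals differed. They were rounded, filtered with filterByExpr (15185 of 20199 genes left) and scaled with TMM factors. Both genotypes, 3 libraries each, entered 1 fit in edgeR 4.0.16 (glmQLFit and glmQLFTest, robust, R 4.3.3), as a 2-sided test; p-values were adjusted by Benjamini and Hochberg's method over all genes, with a threshold of 0.05. The SE is the log2 fold change over the root of F. DESeq2 1.42.0, limma voom (limma 3.58.1), other scalings, filters, a replicate block and leaving out each library were alternatives. The steps were tested on simulated data. Log2 CPM used a prior count of 2. Deposited stop coordinates were lowered by 1, since that matched the RefSeq ends on the same build (4672 genes, against 411 unshifted). Lengths are merged exons of GENCODE vM1. The genes described and the lists were chosen with earlier results of these data known. Named genes are the 8, the 3 of smallest p at 1 CPM or more in each list, fixed pathway genes, the nearest neighbours of Lrrc32 and Tgfb2, and the 5 genes most like each. A gene that this rule names is not reported here, though it stays in the counts. Pairs of libraries differed by more than counting noise (chi-square per gene from 14.0 to 98.2).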

Additional observations from a re-analysis of the deposited data

How the results depend on the processing

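DESeq2 called 69 genes in place of 0, among them 1 gene each of the storage and activation, response and superfamily ligand lists. Leaving out each library in turn gave between 0 and 9 genes called, the 9 without wild-type replicate 1 and 1 without wild-type replicate 2; the cause was not tested. The fit with the replicate number as a block called 0 genes, as did the other scalings, filters and limma voom. The labels do not say that the numbers pair the libraries, and same-numbered libraries did not deviate together (correlations over genes of −0.27, −0.177 and −0.0835, none the highest of its library). Of 104 values for the 8 genes under alternatives, 4 changed sign and 100 moved by less than the larger SD of the 2 groups. The changes of sign came from leaving out 1 library, over which the log2 fold change of Tgfb1 ran from −0.083 to 0.30, of Ltbp1 from −0.0033 to 0.41 and of Ltbp3 from −0.13 to 0.012. Likewise it ran from −0.63 to 0.065 for Thbs1, −0.0015 to 0.10 for Furin, −0.051 to 0.34 for Fbn1, −0.20 to 0.41 for Smad7, −0.56 to 0.078 for Tgfbi, −0.27 to 0.070 for Tsku, −0.58 to 0.27 for Gm15506 and −0.041 to 0.11 for Eprs. Library totals in place of TMM factors moved the median of all genes to 0.04. The longest transcript as gene length, an alternative chosen after seeing the data, left the order of the 8 means as it was. The order within single libraries was not compared under it.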

Other observations

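Hox genes, which mark position along the aorta, were read because the labels do not say which aortic segments were taken. Of 26 listed, 23 were tested, and 0 passed in edgeR or DESeq2. Over all genes, DESeq2 called 0.356% as lower and 0.116% as higher. The fitted mean was higher in knockout for 16 and lower for 7 (median log2 fold change 0.12). Of all genes tested, 50.1% were lower, with a median of −0.00078. The groups were apart for 1 gene, Hoxb5, as higher and for 0 as lower. Over all genes tested, 6.95% were apart as higher and 7.57% as lower. For Hoxa3 the wild-type mean was 35.9 ± 3.02 CPM and the knockout mean 43.8 ± 7.01 CPM (SD, n = 3 each). For Hoxb3 the means were 7.25 ± 0.977 and 9.14 ± 1.16 CPM, and for Hoxb5 9.30 ± 0.438 and 11.1 ± 1.12 CPM. Their part in the differences of Lrrc32 and Tgfb2 was not tested.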
